A study of Mus musculus with 39 samples.

Results

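The variable (V) gene segments of the immunoglobulin heavy chain and kappa light chain were followed through the nucleosome wrapping domains and replication timing (RT) domains of mouse embryonic stem cells. A segment was taken when its symbol in the mm10 annotation started with Ighv on chromosome 12 or Igkv on chromosome 6 and its biotype was that of an immunoglobulin V gene. This gave 213 segments of 55413 annotated genes, 113 Ighv and 100 Igkv. Left out were 70 Ighv and 60 Igkv pseudogenes, 2 Ighv symbols of another biotype, and 2 V genes of the kappa locus with other symbols.

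The cells were of the wild-type line R1, which the labels call embryonic stem cells and trace to the inner cell mass. They were grown in serum and leukemia inhibitory factor. The libraries used here had no treatment other than the BrdU labelling for RT. In H3-wrapping-seq, crosslinked chromatin was cut with micrococcal nuclease and immunoprecipitated with an antibody to histone H3, and 4 libraries from 2 independent experiments were made. The nucleosome wrapping index (NRI) rises with the share of long DNA fragments, so that domains of positive index are tight (TiNRDs) and domains of negative index are loose (LoNRDs). For RT, cells labelled with BrdU were sorted by DNA content into the S phase fractions S1, S2, S3 and S4, which gave 8 libraries, and domains of positive log2(early/late) are early and those of negative value late. The 1243 NRDs and 1811 RT domains are 2 lists with 1 value a domain and no replicate, so the values below have no error, and whether the RT list pooled both experiments is not given in the sources used here. No NRD was shorter than 300.0 kb, and 3.52% of the genome lay in none. R1 is a single line, and the lists hold no expression from which its cell type could be checked.

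V, D and J segments are joined in developing lymphocytes by the recombinase made of Rag1 and Rag2, which cuts at recombination signals beside each segment. A signal holds a heptamer and a nonamer with a spacer between them, short at kappa V segments and long at heavy chain V segments, and joining pairs a short spacer with a long one. In cells outside the lymphoid lineage the segments are kept in germ-line order and are not joined. Both loci are large arrays of related copies with no other protein-coding gene between the first and the last V segment.

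The signals shown are those of the outermost segments of each array and of those on either side of the border nearest its middle. In both loci that border is an RT border, and the wrapping call does not change across it. Each is read from GRCm38 in the direction of its gene, with the heptamer and nonamer in capitals and the spacer in lower case. The boundary between spacer and nonamer is that of the best-scoring match. In Ighv1-39 and Ighv1-85 it differs by 1 base within the same letters. The heavy chain signals are those of Ighv5-2 (chr12:113578465-113578503, minus strand), Ighv1-36 (chr12:114879850-114879887, minus), Ighv1-39 (chr12:114914560-114914598, minus) and Ighv1-85 (chr12:115999990-116000027, minus).
Ighv5-2: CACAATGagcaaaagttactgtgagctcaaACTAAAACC
Ighv1-36: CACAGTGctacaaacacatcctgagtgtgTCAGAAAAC
Ighv1-39: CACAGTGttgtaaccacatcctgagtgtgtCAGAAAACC
Ighv1-85: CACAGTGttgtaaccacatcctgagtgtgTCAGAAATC
Ighv1-36 stands for Ighv1-37, next to the border, in which no signal was found. Among these, Ighv5-2 lay in a TiNRD and a late RT domain, Ighv1-36 in a LoNRD and a late domain, Ighv1-39 in a LoNRD and no RT domain, and Ighv1-85 in a TiNRD and a late domain.

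The kappa signals are those of Igkv2-137 (chr6:67556217-67556244, plus strand), Igkv4-59 (chr6:69438190-69438217, minus), Igkv4-58 (chr6:69500226-69500253, minus) and Igkv3-1 (chr6:70704178-70704205, plus).
Igkv2-137: CACAGTGatacagccctgaACAAAAACC
Igkv4-59: CACAGTGatacagactggaACAAAAACC
Igkv4-58: CACAGTGctacatactgaaACAAAAACA
Igkv3-1: CACAGTGctccagggctgaACAAAAACC
Igkv2-137 lay in a LoNRD and an early RT domain, Igkv4-59 in a LoNRD and no RT domain, Igkv4-58 in a LoNRD and a late domain, and Igkv3-1 in a TiNRD and an early domain. The same heptamer and spacer length therefore stood under 4 different pairs of calls.

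Most V segments of both loci lay in LoNRDs. Of the 113 Ighv segments, 100 (88.5%) had their midpoint in a LoNRD and 13 in a TiNRD. The index of that LoNRD, -0.36, is weak, and with an absolute index of at least 0.5 asked for, 0 of 113 were called loose. Of the 100 Igkv segments, 74 lay in a LoNRD and 26 in a TiNRD. Of all 21938 protein-coding genes, 21.9% lay in a LoNRD and 76.9% in a TiNRD. The segments of a locus share a few domains and are not independent, so these shares describe 2 loci and 5 NRDs and carry no test.

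The replication calls of the loci were less alike. Of the Ighv segments 90 (79.6%) lay in late RT domains, 19 in an early domain and 4 in no domain, against 22.5% of protein-coding genes in late, 73.7% in early and 3.73% in no RT domain. Of the Igkv segments 47 lay in late domains, 6 in early domains and 47 in stretches that no RT domain covered. The pair of calls LoNRD and late was that of 77 Ighv and 33 Igkv segments, and of 14.2% of protein-coding genes. The pair LoNRD and early held 19 Ighv segments and 1 Igkv segment, against 6.13% of protein-coding genes, and the pair TiNRD and late held 13 Ighv and 14 Igkv segments, against 7.88%.

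**Figure D1:**
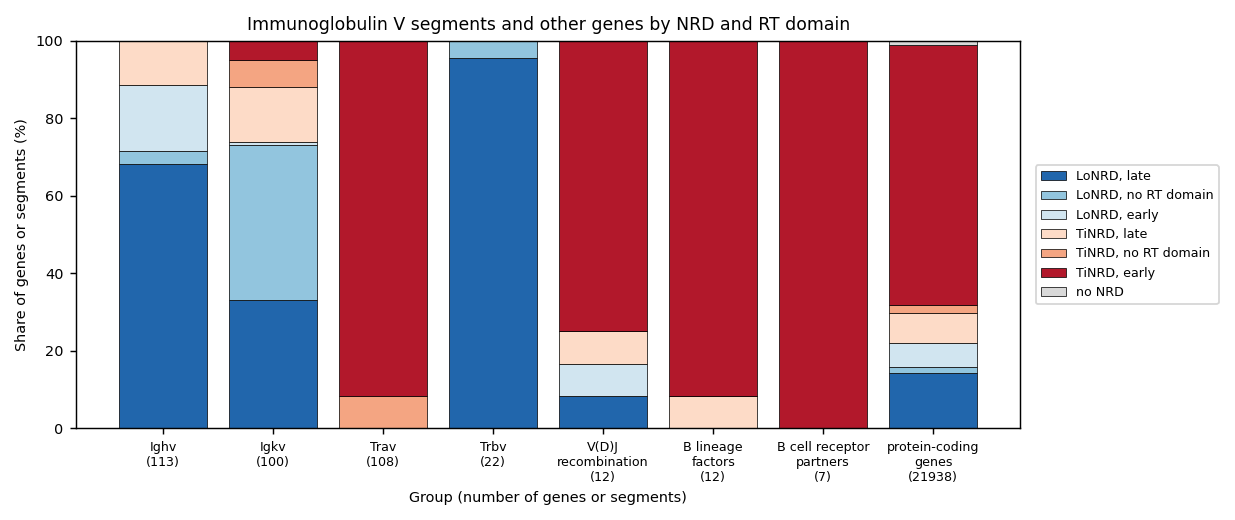
Share of genes or segments (%, vertical axis) in each pair of wrapping and replication calls, for Ighv, Igkv, the alpha and beta T cell receptor V segments, 3 gene lists and all protein-coding genes (number in brackets). The Ighv bar is mostly LoNRD and late (77 of 113), the Igkv bar has its largest part in LoNRDs without an RT domain (40 of 100), and the Trav bar is TiNRD throughout.

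The heavy chain V segments filled 2.42 Mb of chromosome 12 (chr12:113578504-116000461), all 113 on the minus strand, with a median of 18.7 kb between neighbouring midpoints. In the direction of transcription the constant genes stand last, so that the V segment nearest to the D, J and constant genes is Ighv5-2 at the low end of the coordinates, and Ighv1-85 is farthest away. The array ended 4.13 Mb from the end of the chromosome.

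A LoNRD of 2200 kb (chr12:113700001-115900000) held 100 of the segments. It made up 90.8% of the length of the array, against 47.4% of the genome in LoNRDs. Its index of -0.36 was a weak one, with 36.3% of the 611 LoNRDs closer to 0. The 8 segments nearest to the D genes, up to Ighv2-5, lay in the last 121 kb of a TiNRD of 12000 kb with an index of 1.22, and 97% of the 632 TiNRDs were closer to 0 than this. At the far end, 5 segments from Ighv1-80 to Ighv1-85 lay in the first 100 kb of a TiNRD of 2100 kb with an index of 0.49. The LoNRD thus coincided with the V array but for these margins, and contained no protein-coding gene.

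The first NRD border fell between Ighv2-5 (ending 14 kb before it) and Ighv5-12 (starting 2.12 kb after it). The second fell between Ighv1-78, 30.8 kb before it, and Ighv1-80, 12.3 kb after it. Both borders lie on a grid of 100 kb bins after smoothing over 10 bins, so a distance of a few kb to a named segment is finer than the lists resolve.

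Along the same array the RT list had more borders than the NRD list. The RT list was made from 50 kb windows, and the NRD list from 100 kb bins smoothed over 10 bins. The 2 lists are thus of unlike resolution, and a change of wrapping over a stretch as short as 400 kb may not show. A late domain (chr12:113400001-113900000, log2 value -0.75) held the first 20 segments, the next 19 lay in an early domain of 400 kb (chr12:113900001-114300000) with a value of 0.47, and 32 followed in a late domain of 600 kb with a value of -0.66. Then 4 segments (Ighv1-39, Ighv1-42, Ighv1-43 and Ighv1-47) lay in 100 kb without an RT domain, and the last 38 in a late domain of 1250 kb with a value of -0.68. The early domain lay wholly inside the LoNRD, and none of its segments was in a TiNRD. It was bounded by Ighv7-1 and Ighv7-2 on one side and by Ighv3-6 and Ighv9-4 on the other, and Ighv9-4 lay across the border.

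The early domain inside the heavy chain array was of modest value for its kind, with 29.8% of the 832 early domains closer to 0. Early domains that touched a late domain on both sides numbered 493 (59.3% of early domains), and of these 94 (19.1%) lay wholly in a LoNRD and 73 (14.8%) were 400 kb or shorter.

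**Figure D2:**
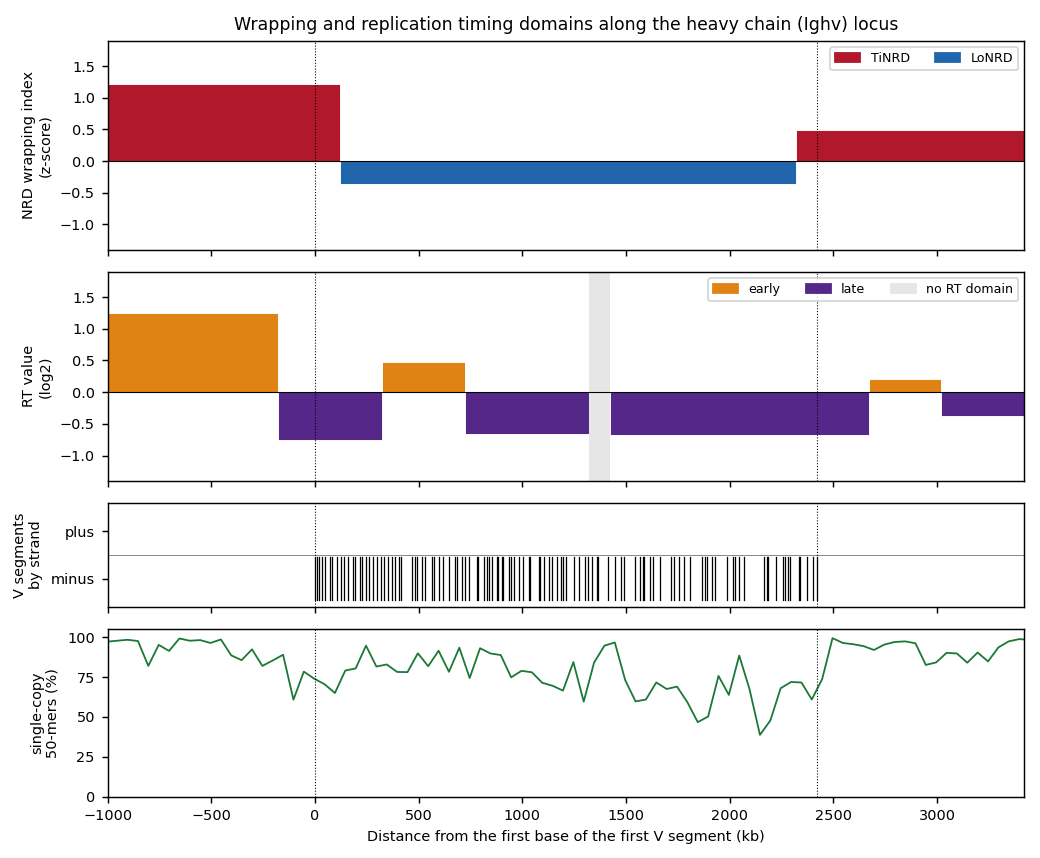
Heavy chain V array and 1000 kb on each side, by distance in kb from the first base of Ighv5-2. From top to bottom are the index of each NRD (z-score), the log2 value of each RT domain, V segments by strand and the share of single-copy 50-mers in 50 kb windows (%), with dotted lines at the ends of the array; 1 LoNRD at -0.36 spans nearly the whole array, and an early domain of 0.47 stands inside it.

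The other parts of the heavy chain gene lay beside the V array on the tight side, and 23 of these 29 genes were late. All 17 Ighd segments named so in the annotation, all 4 Ighj segments and all 8 constant genes lay in the TiNRD of index 1.22. The RT border at 113400000 passed between the constant genes Ighg3 and Ighd. The 6 constant genes from Igha to Ighg3 were early (1.25), whereas Ighd, Ighm, the J and the D segments shared the late domain of -0.75 with the first 20 V segments. With the D, J and constant genes included the locus was 2.75 Mb long and 80.1% of it lay in the LoNRD.

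Both flanks of the heavy chain array were tight over the whole of 1 Mb. Below it lay 24 protein-coding genes, all in the TiNRD, 22 of them early. The nearest was Adam6a, a late gene of the ADAM family 32 kb away, and the first early one was Tmem121, 389 kb away. No gene in a LoNRD was met below the array before Tc2n, 11.9 Mb away and past 151 other protein-coding genes. Above it lay 7 protein-coding genes, all in the TiNRD of 0.49, with 4 late and 3 early. The nearest was Zfp386, a zinc finger gene 47.3 kb away that shared the late domain of the last V segments, the first early one was Gm11027 at 275 kb, and the first in a LoNRD was Dnah11, an axonemal dynein gene 1.88 Mb away.

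The kappa V segments filled 3.15 Mb of chromosome 6 (chr6:67555497-70704177), with 62 segments on the minus and 38 on the plus strand and 14 changes of strand along the array. Neighbouring midpoints were a median of 24.9 kb apart, and the widest step, 125 kb, separated Igkv4-78 from Igkv4-74. Igkv3-1 stands next to the J segments and the constant gene, and Igkv2-137 is farthest from them. Segments of both strands can be joined, those on the opposite strand by inversion.

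A LoNRD of 2900 kb (chr6:67200001-70100000, index -0.53) held 74 of the segments. It held 80.8% of the length of the kappa array, against 47.4% of the genome in LoNRDs. Its index was near the middle of its kind, with 54.5% of LoNRDs closer to 0. The 26 segments nearest to Igkj, from Igkv8-30 to Igkv3-1, lay in 604 kb of a TiNRD of 3400 kb with an index of 0.63. The only NRD border inside the array fell between Igkv6-32, 25.4 kb before it, and Igkv8-30, 17.1 kb after it. The tight segments of kappa were thus the 26 nearest to the J and constant genes, whereas of the 13 tight heavy chain segments 8 were nearest to the D and J genes and 5 were farthest from them.

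RT domains covered the kappa array only in part. An early domain (1.09) ended 43.8 kb past Igkv2-137, the only segment in it, and 350 kb without a domain followed with 10 segments. A late domain of 750 kb (-0.56) held 17 segments, a gap of 750 kb held 24, a late domain of 500 kb (-0.35) held 16, a gap of 300.0 kb held 13 and a late domain of 400 kb (-0.57) held 14. The last 5 segments, Igkv3-5, Igkv3-4, Igkv3-3, Igkv3-2 and Igkv3-1, lay in an early domain of 2700 kb (1.06) that went on past the constant gene. Borders inside the array lay beside Igkv1-135, Igkv9-124 and Igkv9-123, Igkv10-95 and Igkv10-94, Igkv4-59 and Igkv4-58, Igkv12-38 and Igkv5-37, Igkv8-24 and Igkv6-23, and Igkv3-7 and Igkv3-5.

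The 3 gaps took 1400 kb, 44.5% of the kappa array, against 4.13% of the heavy chain array and 4.93% of the genome. Late domains took 52.4% of the length of the kappa array, near the 52.0% of the genome, and 79.4% of the heavy chain array. Over the genome there were 523 gaps between successive RT domains of a chromosome, with a median of 200 kb, and 14 of them (2.68%) were as long as the 750 kb gap. The share of single-copy 50-mers in the gaps was 77.2%, 72.0% and 73.3%, and in the 3 late domains beside them 77.6%, 74.8% and 59.2%, the last of these lying after the last gap. The 750 kb gap was thus slightly below both late domains beside it, but the lowest share of these stretches, 59.2%, was that of a late domain with a call, and the part of copies in the gaps was not tested. The late domain of -0.35 was weak, with 11.8% of 979 late domains closer to 0.

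**Figure D3:**
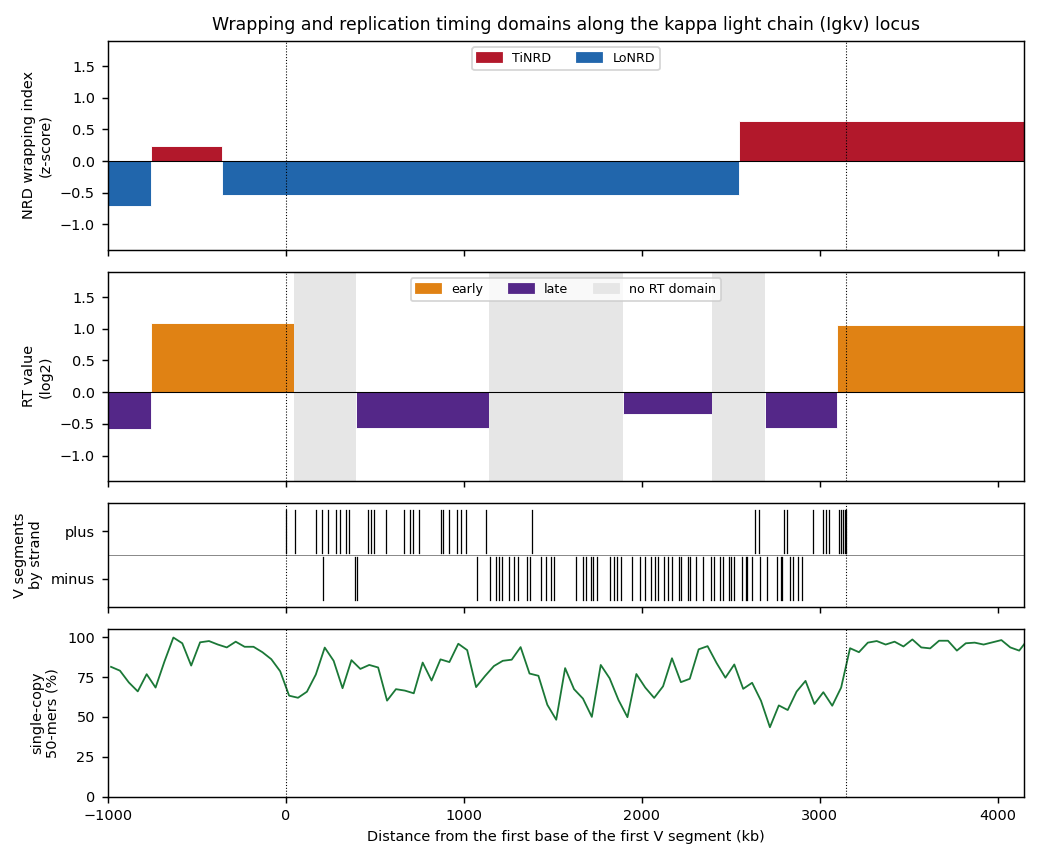
Kappa V array and 1000 kb on each side, by distance in kb from the first base of Igkv2-137, drawn as for the heavy chain (NRD index, RT log2 value, V segments by strand, single-copy 50-mers in %). The LoNRD of -0.53 ends before the last 26 segments, and grey stretches without an RT domain alternate with 3 late domains.

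The kappa array was flanked by early replication on both sides. All 5 Igkj segments and Igkc lay in the TiNRD of 0.63 and the early domain of 1.06. Above the array the 14 protein-coding genes within 1 Mb were all tight and early, Rpia of the pentose phosphate pathway being the nearest at 61.5 kb. The first gene of another call on that side was 4931417E11Rik, late and 2.76 Mb away, and the first in a LoNRD was Gm9008, 5.79 Mb away. Below the array 11 of 14 protein-coding genes lay in LoNRDs, and 7 were early and 7 late. The first gene on this side in a TiNRD was Gadd45a, a stress response gene 518 kb away, and the first late gene was Vmn1r38, a vomeronasal receptor gene 773 kb away.

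V families are groups of segments named by sequence likeness, and several of the larger ones were laid out in blocks. Others were spread out: the 10 members of Igkv1 ran from 54.6 to 2456 kb into the array, the 6 of Igkv12 from 1016 to 2388 kb, and the 9 of Ighv8, from 884 to 2187 kb, stood among those of Ighv1. Ighv1, the largest family with 53 members, began 909 kb into the array and had no member in the early domain, 49 being late and 4 without a call. Ighv5 (10 members) and Ighv2 (9 members) lay within 301 kb of the start and were all late. The 19 early Ighv segments came from 7 families, among them all 4 of Ighv14, both of Ighv11, 5 of 6 of Ighv3, and 3 of 4 each of Ighv7 and Ighv9. The 13 tight Ighv segments came from 3 families, 4 of Ighv5, 4 of Ighv2 and 5 of Ighv1.

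At kappa, Igkv4 was the largest of 20 families, with 26 members, all on the minus strand and all in the LoNRD, 8 late and 18 without an RT domain. The 26 tight segments were all 9 of Igkv3, 9 of 10 of Igkv8 and 8 of 9 of Igkv6. By strand they were 13 plus and 13 minus, whereas the loose ones were 25 plus and 49 minus. Igkv3 was on the plus strand throughout, and its 9 members spanned the RT border, with 5 early and 4 late.

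**Figure D4:**
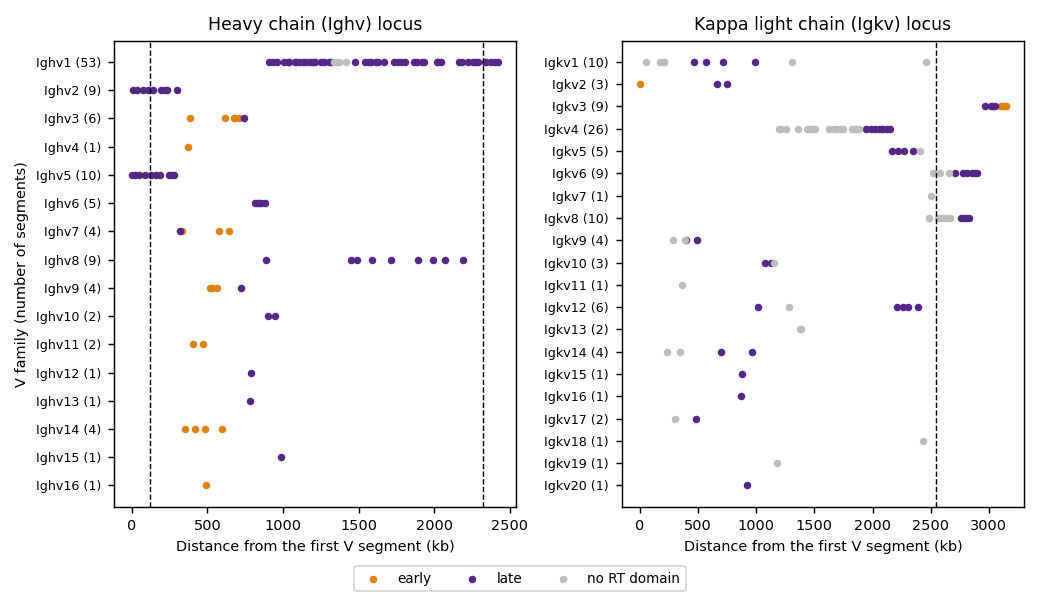
Position of each V segment (kb from the first base of the first segment, horizontal axis) by V family (vertical axis, number of segments in brackets) in the heavy chain and kappa arrays. Colours give the RT call and dashed lines the NRD borders; the early Ighv segments come from 7 families between the Ighv5 and Ighv2 block and the Ighv1 block, and the tight Igkv segments from Igkv3, Igkv6 and Igkv8.

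A recombination signal was found beside 98 of 113 Ighv and 98 of 100 Igkv segments. The exact heptamer CACAGTG was that of 80 Ighv and 86 Igkv segments, and the exact nonamer ACAAAAACC that of 3 Ighv and 34 Igkv segments. In the best match the spacer had 12 bases in 97 of the 98 at kappa. At the heavy chain it had 23 bases in 46, 22 in 50 and 24 in 2. The search allowed spacers within 1 base of the canonical length and kept the match with the fewest mismatches. These lengths follow from that score and are no measure of the true spacer. None of the 9 Ighv8 segments, all of them loose, had a match in the window searched, and they were 9 of the 15 Ighv segments without a signal. Signals were found at all 13 tight and 85 of 100 loose Ighv segments, and at 26 of 26 tight and 72 of 74 loose Igkv segments.

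The octamer ATGCAAAT, bound by the POU factors Pou2f1 and Pou2f2, is known from V gene promoters of both chains, in opposite directions. On the strand of the gene it was found within 250 bases before 90 of 113 Ighv segments (79.6%) and 2 of 100 Igkv segments, and on the other strand, read as ATTTGCAT, before none of the Ighv and 72 of the Igkv segments. Before protein-coding genes it stood on either strand in 1.45%. It was found before 8 of 13 tight and 82 of 100 loose Ighv segments, and before 9 of 26 tight and 63 of 74 loose Igkv segments. The tight segments are of only 3 families at the heavy chain and of 3 at kappa, and the members of a family share their promoters by descent. At the heavy chain, Ighv2 and Ighv5 had members on both sides of the first NRD border. None of the 4 tight and 5 loose Ighv2 segments had the octamer, and all 4 tight and 6 loose Ighv5 segments had it. Within these families its presence thus did not differ with the call. At kappa, Igkv8 and Igkv6 had 1 loose member each and Igkv3 had none, so family and call cannot be told apart there. The part of the call in the octamer counts was not tested. A match describes the letters and is no measure of binding.

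A/T content was high in both arrays. It was 60.8% over the heavy chain array and 61.3% over the kappa array, above 68.5% and 73.6% of all 100 kb bins. The median bin had 61.4% in LoNRDs and 55.8% in TiNRDs, and 61.0% in late and 55.6% in early domains. Within the arrays it changed little with the call. The tight part of kappa had 59.9% and its loose part 61.6%, and the upper quartile of bins in TiNRDs was 57.6%. The early domain of the heavy chain had 61.2% and the late domain after it 60.7%, and the upper quartile of early bins was 57.9%. The part of A/T content in the calls was not tested.

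Copies of a segment limit how reads can be placed. Of 50-mers in the heavy chain array 74.4% occurred once in the assembly, against 87.4% of chromosome 12, and of those in the kappa array 72.6%, against 89.8% of chromosome 6. With 100-mers the shares were 90.0% and 88.0%. The lowest part of the heavy chain was the late domain at its far end (65.5%), and the early domain had 84.5%. At kappa the tight part had 62.3% and the loose part 75.2%. For single segments the share ran from 10.5% to 100% at Ighv, with a median of 78.3%, and from 21.2% to 100% at Igkv, with a median of 77.0%. No segment was without a single-copy 50-mer. The reads were paired, and the part of copies in the calls was not tested.

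R1 cells come from mice of substrains related to 129S1/SvImJ, whereas the reference is of C57BL/6J, and heavy chain V arrays are known to differ between strains. The reference release holds an alternate sequence of strain 129S1/SvImJ of 1.71 Mb. It aligned in 24 separate blocks of at least 5 kb within chr12:113129176-114458697, a span of 1.33 Mb that holds 48 of the 113 Ighv segments. From its start to the first V segment, a stretch in the TiNRD with the constant, J and D genes and a few genes below them, 64.9% of the reference 50-mers were found in the strain sequence. From the first segment to the first NRD border, 95.2% of the reference 50-mers were found in it, and from that border to its end 30.1%. In the 100 kb before the border the share was 95.2%, and in the 100 kb after it 32.5%. The 8 tight segments had a median of 96.9% (75.2 to 100%), and the 40 loose ones a median of 43.5% (0 to 100%). The first 50 kb window after the border still had 51.1% and the next 13.8%, and the first loose segments Ighv5-12 and Ighv2-6 were at 100%. This step in strain match and the NRD border thus lay within 100 kb of each other, while the lower match below the V array stood inside the TiNRD.

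Across the RT borders the match to 129S1/SvImJ sequence did not step in the same way. It was 29.1% in the late domain between the NRD border and the early domain, 28.2% in the early domain, and 36.0% in the following late domain up to the end of the strain sequence. The part of strain in the calls was not tested. No such sequence was compared for the kappa array or for the other Ighv segments.

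**Figure D5:**
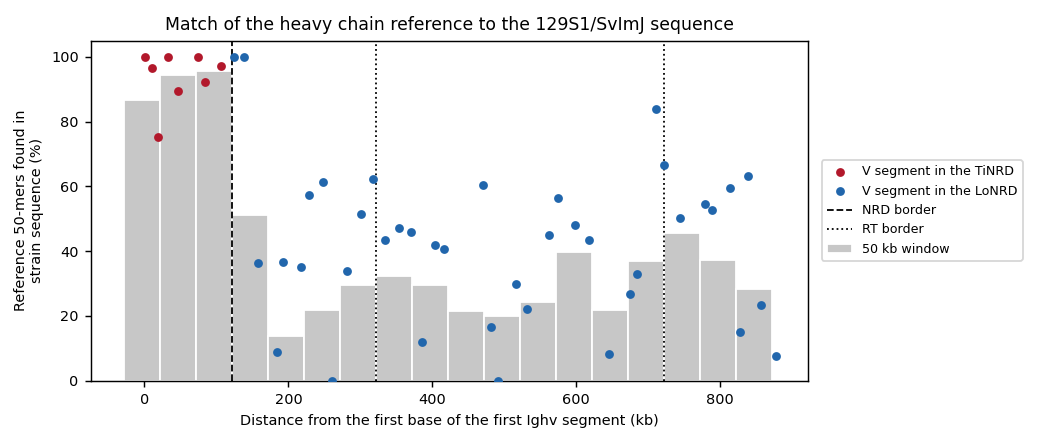
Share of reference 50-mers found in the 129S1/SvImJ sequence (%, vertical axis) along the part of the heavy chain array that this sequence spans (kb from the first base of Ighv5-2), in 50 kb windows (bars) and single V segments (points). The dashed line is the NRD border and dotted lines are RT borders; bars fall from 95.8% before the NRD border to 13.8% in the second window after it.

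Other antigen receptor loci had calls of their own. The 3 Iglv segments of the lambda light chain lay in a LoNRD of -0.25, 2 in a late domain of -0.69 and 1 in an early domain of 1.26. All 108 Trav segments of the T cell receptor alpha chain lay in a TiNRD of 0.67, with 99 early and 9 in no RT domain. All 22 Trbv segments of the beta chain lay in a LoNRD of -0.38, 21 of them in a late domain of -0.90. The 5 Trdv segments of the delta chain shared the TiNRD of Trav, with 2 early and 3 without an RT domain, and the 7 gamma chain segments (1 Trgv and 6 Tcrg-V symbols) were in no NRD, with 5 late (-0.46) and 2 early (0.71). The other 2 segments, without a receptor symbol, were tight and early. Of all 144 T cell receptor V segments 115 lay in TiNRDs and 22 in LoNRDs. V segments thus lay mostly in LoNRDs at heavy chain and kappa, and wholly so at lambda (3 segments) and the beta chain. Those of the alpha and delta chains were tight, and those of the gamma chain were in no NRD. The LoNRDs of the heavy chain (-0.36), lambda (-0.25) and the beta chain (-0.38) were weaker than that of kappa (-0.53).

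The genes whose products act on the segments had the calls of most genes. Of 12 genes of V(D)J recombination 10 lay in TiNRDs and 10 were early. Rag1 and Rag2, the recombinase, shared a TiNRD of 0.52 and an early domain of 0.57, and Dntt, which adds nucleotides at joints, lay in a TiNRD of 0.89. The exceptions were Prkdc, the DNA-dependent kinase of end joining, loose (-0.23) and early, Xrcc4, a partner of the ligase, loose (-0.91) and late (-0.48), and Lig4, the ligase, tight (1.03) and late (-0.76).

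A list of 12 genes joined transcription factors of the B lineage with regulators of the V loci, such as Yy1, Ezh2 and Ctcf. All 12 lay in TiNRDs, with values from 0.34 at Ikzf1 to 1.64 at Tcf3, and 11 were early. The late one was Pou2af1 (-1.01), the coactivator at octamers. All 7 partners of the receptor and of the surrogate light chain, such as Cd79a and Cd79b, which signal for the receptor, and Vpreb1 and Igll1, which stand in for a light chain, were tight and early. Against 76.9% of protein-coding genes in TiNRDs and 73.7% in early domains, these shares describe short lists and carry no test.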

How the data were processed

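R1 libraries of H3-wrapping-seq (4, from 2 independent experiments) and of the BrdU fractions S1 to S4 (8) were made into 2 lists of domains by the authors. The submitters' processing notes name cutadapt 4.3, Bowtie2 2.5.1, bedtools 2.30.0, Picard, SAMtools and mm10; reads under a mapping quality of 10 were dropped. For each NRD the authors deposited a score: fragments above and below 140 bp were compared in 100 kb bins, and the z-score was smoothed over 10 bins before FindHiCCompartments was run. For each RT domain the authors deposited a log2 ratio of (S1+S2)/(S3+S4) from quantile normalized 50 kb windows. How bins gave a domain's value is not given in the sources used here. The lists name no replicate and give no reads per domain, so depth can be had per library from the study's text but not per domain, and no test was made. The NRD list used here holds fewer domains than the study counts.

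Genes were those of GENCODE release M21 on GRCm38 (mm10), whose chromosome lengths equalled the end of the last RT domain on 20 of 21 chromosomes. Each gene took the call of the domain holding its midpoint, and protein-coding genes were the background. Recombination signals were searched within 5 bases of the segment's end, with the first 3 bases of the heptamer exact, at most 4 mismatches in 16 bases and a spacer within 1 base of the canonical length. Copies of 50-mers were counted on both strands of the primary assembly. The alternate 129S1/SvImJ sequence in the reference release was aligned with minimap2 2.31, its 50-mers were pooled with those of the shorter alternate strain sequences of chromosome 12, and this comparison was chosen after seeing the data. Python 3.11.15, numpy 2.4.6, pysam 0.24.0 and samtools 1.23.1 were used, and assignment and k-mer counts were tested on simulated data. Alternatives changed the point, the segments, the domains, the ends and flanks, the k-mers and the background.

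The members and lists were chosen with earlier results of these data known. Segments named were the first and last of each locus, those beside each border, and all of a less frequent call where a locus held at most 10. Genes named were the nearest on each side, the first of another call, and members of lists. A result that this rule called for is not reported here. Libraries with histone H4, MNase input, digestion times and cell cycle phases were not analysed here.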

Additional observations from a re-analysis of the deposited data

How the results depend on the processing

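Of 58 alternative values for 22 results, 41 stayed within the 95% Wilson interval of a share of segments or within 10 percentage points of a share of length or sequence; the interval covers counting only, since segments share domains. The share of Ighv segments in LoNRDs rose to 95.7% at 100 kb or more from a border and was 0% with an absolute index of at least 0.5, since the index of its LoNRD is -0.36. The late share of Ighv was 86.2% at 50 kb or more from a border. The late share of Igkv, 47.0%, was 33.0% with domains of 500 kb or more, 31.0% with an absolute value of at least 0.5, and 88.7% of the 53 segments with a call, an alternative chosen after seeing the data. With D, J and C genes the heavy chain locus was 80.1% loose. With flanks of 500 kb the late share was 35.7% below and 49.9% above the heavy chain (40.0% above with 2 Mb). Below kappa the loose share was 71.1% and 80.0% and the late share 0% and 47.5% with flanks of 500 kb and 2 Mb. Single-copy shares with 100-mers were 90.0% (heavy chain) and 88.0% (kappa), and the late background over all annotated genes was 33.3%. No paired analysis was possible because the lists hold no replicates and no result comes from a test. No replicate was left out, since RT tracks per replicate were not analysed here. The depth behind each domain is unknown, and the 100 kb bins and 50 kb windows limit the place of each border.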
